A study of Mus musculus with 13 samples.

Results

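The genes described here encode the matrix metalloproteases (MMPs), the ADAM and ADAMTS proteases and their tissue inhibitors (TIMPs) in mouse tongue epithelium. They were taken as all genes with reads whose symbol begins with Mmp, Adam, Adamts or Timp and a digit. This gave 67 of 19909 genes with reads, namely 21 Mmp, 23 Adam, 19 Adamts and 4 Timp genes. A further 12 rows of these families, 2 Mmp and 10 Adam, were listed at 0 and are not counted. The member nearest to that limit, Adamts16, had a mean of only 0.0623 normalised counts. An adjusted p was given to 58 of the 67 members in the authors' deposited table, and the other 9 were too low in mean to receive one.

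Polyadenylated RNA of tongue epithelia was read from 6 H3K36M samples, of genotype Krt14-Cre(+); LSL-H3K36M, and from 7 control samples, of genotype Krt14-Cre(-); LSL-H3K36M. Both groups thus carried the LSL-H3K36M allele, which encodes histone H3 with methionine in place of the lysine at K36, and only the H3K36M samples also carried Cre. Cre and the mutant histone are therefore confounded and their effects cannot be told apart. The Krt14 promoter works in basal cells of many stratified epithelia, not in the tongue alone. Strain, sex and age of the mice, and whether each sample was 1 animal, are not stated in the labels used here, so p-values measure the spread between these samples. Values come as a fitted level per group in normalised counts, with a log2 fold change of H3K36M over control and its standard error (SE). Libraries averaged 15769751 normalised counts in total. Values of single samples were not analysed here, so whether a difference was shared by all libraries of a group cannot be read from them. In bulk RNA, fewer cells of a type and less RNA per cell cannot be told apart.

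MMPs are zinc proteases that are made as inactive precursors and cut collagens, basement membrane and other matrix proteins once the prodomain is removed. ADAMs are mostly anchored in the membrane and release the outer parts of surface proteins such as growth factors, cytokine receptors and NOTCH. ADAMTS proteases are secreted and cut proteoglycans, procollagens and other matrix proteins. TIMPs bind the active site of these enzymes, with TIMP3 reaching furthest into the ADAM and ADAMTS families. In stratified epithelia such as skin and oral mucosa these enzymes are best known from wound repair, growth factor shedding and invasion.

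Of the proteases and inhibitors 1 member passed the threshold, Adamts18, which fell. At an adjusted p below 0.05 (DESeq2 by the authors, over all genes) the authors' deposited table called 0 of 58 tested members higher and 1 lower. Among all 17449 tested genes 1.85% were higher and 1.59% lower, so the members' share was close to that of all genes. At an unadjusted p below 0.05, the same deposited table of the authors had 9 members higher and 2 lower. That rule took 5.04% of all tested genes as higher and 4.79% as lower, so it held for 19.0% of the tested members in all, against 9.82% of all tested genes. The tested members had a median of 0.26 on the log2 scale, against 0.07 over all tested genes.

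Adamts18 is a secreted protease that in mouse embryos is made at the tips of branching epithelia. It lies on chromosome 8 (113697126 to 113848738, minus strand, GRCm38). Its fitted level was 1.29 normalised counts in H3K36M and 11.5 in control in the authors' deposited table, or 7.75 normalised counts summed over the 6 H3K36M libraries and 80.4 over the 7 control libraries. The log2 fold change was −3.15 (SE 0.94, adjusted p = 0.0269, DESeq2 by the authors) in that deposited table, with a 95% interval of −4.99 to −1.32. The coefficient of variation (CV) between libraries, beyond counting error, that would give this SE was 0.952. At 0.666 normalised counts per kb of exon it was a rare transcript, ranked 49 of the 67 members by level, and the call was lost at an adjusted p below 0.01.

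**Figure D1:**
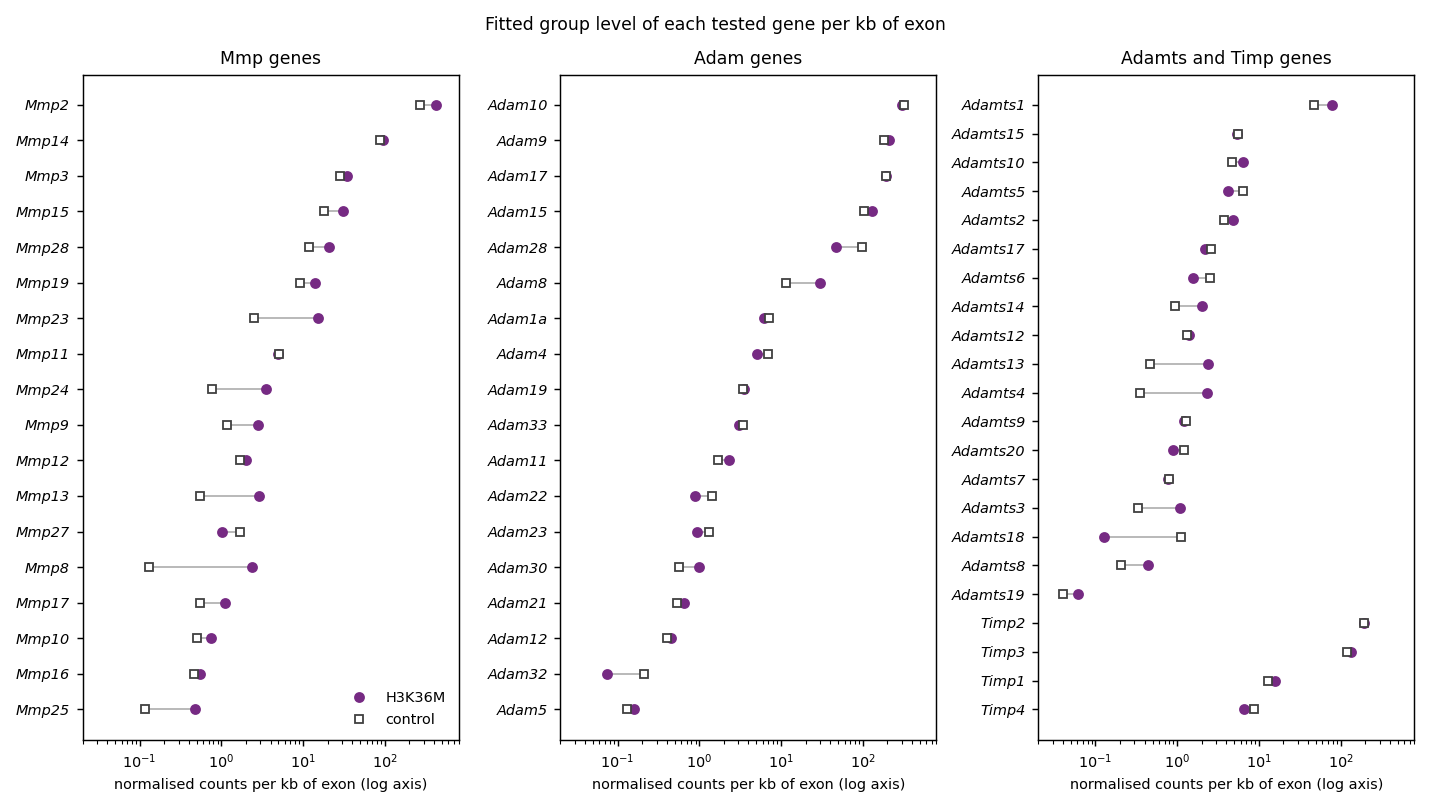
Fitted group level of the 58 tested members in normalised counts per kb of exon (log axis), with a filled circle for H3K36M and an open square for control, ordered by mean within each family. Mmp2, Adam10, Adam9, Adam17, Timp2 and Timp3 lie furthest right, and for Adam10, Adam17 and Timp2 the symbols nearly coincide; for Adamts18 the H3K36M circle lies at 0.127 and the control square at 1.13.

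Per kb of exon, a few members made up most of each family. Mmp2 held 64.4% of the summed Mmp level in H3K36M and 61.3% in control, and Mmp2 and Mmp14 together held 78.9% in H3K36M and 81.1% in control. Adam9, Adam10 and Adam17 held 75.4% of the Adam level in H3K36M and 74.4% in control. Timp2 and Timp3 held 93.6% of the Timp level in H3K36M and 93.5% in control, and Adamts1 held 68.0% of the Adamts level in H3K36M and 58.2% in control. By mean level per kb Mmp2 came first (340 normalised counts), then Adam10 (316), Adam9 (194), Adam17 (193), Timp2 (191) and Timp3 (126). Whether neighbours in this order differ was not tested, since their spread over samples is not known. The 5 highest members of the Mmp, Adam and Adamts families were also the 5 highest when coding length was used.

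Of the gelatinases, MMPs that cut denatured collagen and basement membrane collagen, Mmp2 was the only one at a high level. Mmp2, on chromosome 8 (92827291 to 92853420), stood at 1422 normalised counts in H3K36M and 911 in control in the authors' deposited table. Its log2 fold change of 0.64 (SE 0.24) had an unadjusted p of 0.00765 and did not pass (adjusted p = 0.153, DESeq2 by the authors). The 95% interval ran from 0.17 to 1.11, that is from 1.13-fold to 2.16-fold. Mmp2 is made mainly by fibroblasts, and of the 12 fibroblast markers 0 passed and 5 of 12 were above 0, with a summed level of 21932 normalised counts in H3K36M and 23288 in control. The fibroblast markers of highest mean, Dcn and Gsn, had log2 fold changes of −0.20 (SE 0.31) and 0.05 (SE 0.76) in the authors' deposited table. The median SE of the 12 was 0.98, and the part of fibroblasts in the Mmp2 value was not tested. Mmp9, the gelatinase of neutrophils, macrophages and activated keratinocytes, stood at 10.03 normalised counts in H3K36M and 4.11 in control, with a log2 fold change of 1.29 (SE 1.02, adjusted p = 0.911, DESeq2 by the authors) in that deposited table.

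The collagenases, which open intact fibrillar collagen, had higher fitted levels in H3K36M but few reads. Mmp13 (collagenase 3), on chromosome 9 (7272514 to 7283331), stood at 7.65 normalised counts in H3K36M and 1.45 in control in the authors' deposited table. Its log2 fold change of 2.40 (SE 0.77) had an adjusted p of 0.0513 (DESeq2 by the authors), just above the limit of 0.05, so it was not called. The 95% interval was 0.89 to 3.91. Mmp8 (neutrophil collagenase) stood at 5.75 normalised counts in H3K36M and 0.319 in control in the authors' deposited table, with a log2 fold change of 4.17 (SE 1.70, adjusted p = 0.237, DESeq2 by the authors). Summed over libraries that was 34.5 normalised counts in H3K36M and 2.23 in control, and from these sums in whole numbers (34 and 2), each divided by its number of libraries (6 and 7), the ratio per library was 19.8 with a counting interval of 5.08 to 170. That interval covers counting error only. The rodent copies of collagenase 1, Mmp1a and Mmp1b, were listed at 0.

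Markers of neutrophils and of cartilage and bone had higher fitted levels in H3K36M, whereas only 5 of 12 fibroblast markers were above 0. Of 13 neutrophil markers, all 13 had a higher fitted level in H3K36M and 2 of 9 tested passed (S100a8 and S100a9, which keratinocytes also make), with a summed level of 8372 normalised counts in H3K36M and 255 in control. Most of that sum in H3K36M was Ltf, a gene also made by glands, at 6440 normalised counts in H3K36M and 59.5 in control. The authors' tool set Ltf aside as an outlier, so it had no p. At an unadjusted p below 0.05, 7 of the 9 tested were higher, and the median log2 fold change of the 9 was 2.64. S100a8 stood at 792 normalised counts in H3K36M and 54.8 in control, and S100a9 at 911 in H3K36M and 53.9 in control, in the authors' deposited table. The leukocyte genes Cxcr2 (85.6 normalised counts in H3K36M and 29.1 in control, adjusted p = 0.060, DESeq2 by the authors) and Itgam (84.7 in H3K36M and 37.5 in control) did not pass. Ly6g, Mpo and Elane were at or below 0.482 normalised counts in H3K36M and 0.294 in control in the authors' deposited table. Of 15 cartilage and bone markers, all 15 had a higher fitted level in H3K36M, with summed levels of 909 normalised counts in H3K36M and 85.4 in control. The authors' tool set 10 of those 15 aside as outliers, and of the 5 tested Bglap passed, with a log2 fold change of 2.69 (SE 0.75, adjusted p = 0.0125, DESeq2 by the authors) in that deposited table. The largest parts of the sum in H3K36M were 2 genes set aside, Chad (416 normalised counts in H3K36M and 1.42 in control) and Acan (155 in H3K36M and 0.124 in control). Sox9, the tested marker of highest mean, stood at 48.8 in H3K36M and 45.7 in control. The part of neutrophil, cartilage and bone cells in the values of Mmp8, Mmp9, Mmp13, Mmp25 and Adam8 was not tested.

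The stromelysins cut matrix proteins broadly and activate other MMPs. Mmp3 stood at 62.1 normalised counts in H3K36M and 51.6 in control in the authors' deposited table (log2 fold change 0.27, SE 1.07). Mmp10, best known at the edge of wounds, stood at 1.30 normalised counts in H3K36M and 0.876 in control there. Mmp7 (matrilysin), an enzyme of glandular epithelia, had only 2.36 normalised counts summed over all 13 libraries. The stromelysins thus showed no difference that these libraries could resolve, and Mmp7 was too low to be tested.

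The Mmp genes of chromosome 9 lie together between Mmp13 and Mmp7, and 8 of 10 held a promoter motif that the choice of genes did not use. The motif searched for AP-1, the dimer of FOS and JUN proteins, was TGANTCA, with N for any base, which reads the same on both strands. In windows of 300 bases (250 before and 50 after each start, RefSeq, GRCm38.p6), 8 of the 10 cluster genes held it, against 5 of the other 39 rows of these families with an entry, rows listed at 0 counted on both sides, and 8.97% of 27025 genes with an entry. Among genes with reads alone, 2 of 33 members outside the cluster held it. Of all 79 rows of these families, 49 had an entry. The stretches shown here place the motif, in capitals, between 35 and 93 bases upstream of the RefSeq start they belong to, to let a reader compare the flanks between genes. Mmp12 and Mmp7 each have windows at both of their starts, and only 1 of each pair held the motif. For Mmp12 that is the window of the downstream start, so its stretch lies inside the gene as annotated in GENCODE.
Mmp13 (chr9:7272449-7272513, plus strand): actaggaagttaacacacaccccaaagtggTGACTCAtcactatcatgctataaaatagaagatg
Mmp12 (chr9:7347300-7347366, plus strand): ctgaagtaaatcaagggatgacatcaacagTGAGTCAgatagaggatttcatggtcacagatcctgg
Mmp3 (chr9:7445746-7445812, plus strand): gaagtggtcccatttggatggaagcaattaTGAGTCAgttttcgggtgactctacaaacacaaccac
Mmp10 (chr9:7502249-7502315, plus strand): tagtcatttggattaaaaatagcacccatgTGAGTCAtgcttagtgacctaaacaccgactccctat
Mmp7 (chr9:7691997-7692063, plus strand): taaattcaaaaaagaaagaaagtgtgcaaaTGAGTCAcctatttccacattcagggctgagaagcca
Mmp1a (chr9:7464038-7464104, plus strand): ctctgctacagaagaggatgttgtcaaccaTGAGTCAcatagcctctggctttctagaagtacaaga
Mmp1b (chr9:7388083-7388149, minus strand): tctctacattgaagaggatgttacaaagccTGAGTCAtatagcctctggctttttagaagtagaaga

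The last 3 of these genes show the window without measurable expression, since Mmp7 had only the few reads given above and Mmp1a and Mmp1b none. Mmp20, an enamel protease, held the motif 95 bases upstream and had 3.44 normalised counts summed over all libraries. Its match was TGAATCA, the only match in the cluster without C or G as the middle base. Outside the cluster, Adam20 and Adam25 also matched as TGAATCA. Mmp8 and Mmp27 were the cluster genes without the motif in their windows. Of the 6 cluster genes tested 5 were above 0 and 1 below, 0 passed, 2 had an unadjusted p below 0.05 (DESeq2 by the authors), and the median log2 fold change was 0.42. Among all tested genes 56.6% were above 0 and 9.82% had an unadjusted p below 0.05. The gene with the smallest p of the cluster, Mmp13, held the motif, and the gene with the largest fold change, Mmp8, did not. Mmp12 (macrophage elastase) stood at 14.6 normalised counts in H3K36M and 12.3 in control in the authors' deposited table (log2 fold change 0.24, SE 0.40). Mmp27 had a log2 fold change of −0.73 (SE 1.49) there. A motif match describes these letters and is no evidence of binding in the tongue.

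The membrane-type MMPs, which act at the cell surface, had estimates above 0 in all 7 tested genes, and 0 passed, with 2 at an unadjusted p below 0.05 (DESeq2 by the authors). Among all tested genes 56.6% had an estimate above 0 and 9.82% an unadjusted p below 0.05. Mmp14, the main activator of pro-MMP2, stood at 566 normalised counts in H3K36M and 520 in control in the authors' deposited table (log2 fold change 0.12, SE 0.52). Mmp15 stood at 166 normalised counts in H3K36M and 98.6 in control there. Mmp23, a transmembrane MMP without the usual hemopexin domain, stood at 36.02 normalised counts in H3K36M and 5.86 in control in the authors' deposited table, with a log2 fold change of 2.62 (SE 1.07, adjusted p = 0.236, DESeq2 by the authors). Mmp24, known from nervous tissue, stood at 16.6 normalised counts in H3K36M and 3.64 in control, with 2.19 (SE 0.85, adjusted p = 0.187, DESeq2 by the authors) in that deposited table. Mmp25, a leukocyte enzyme, had 2.49 normalised counts in H3K36M and 0.623 in control there, and Mmp16 and Mmp17 also had means below 10. The 95% interval of Mmp24 was 0.52 to 3.86 and that of Mmp23 0.53 to 4.71, so both are imprecise.

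Of the other secreted MMPs, Mmp28 (epilysin), a keratinocyte enzyme, stood at 79.8 normalised counts in H3K36M and 45.5 in control in the authors' deposited table (log2 fold change 0.81, SE 1.11). Mmp19 stood at 49.3 normalised counts in H3K36M and 32.8 in control there, and 28.3% of its exon bases overlap genes on the other strand. Mmp21 had 4.46 normalised counts summed over all libraries. Mmp11, a stromal enzyme, stood at 13.8 normalised counts in H3K36M and 14.1 in control in the authors' deposited table. Over the family, 16 of 18 tested Mmp genes (88.9%) had an estimate above 0, against 56.6% of all tested genes. Their median was 0.70 on the log2 scale. The median SE of these genes was 1.04, 13 of the 18 had a mean under 50 normalised counts, and 0 passed in either direction. At an unadjusted p below 0.05 (DESeq2 by the authors), 5 of the 18 were higher and 0 lower. That rule took 5.04% of all tested genes as higher and 4.79% as lower. Of the 6374 tested genes with a mean under 50, it took 504 as higher and 268 as lower.

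**Figure D2:**
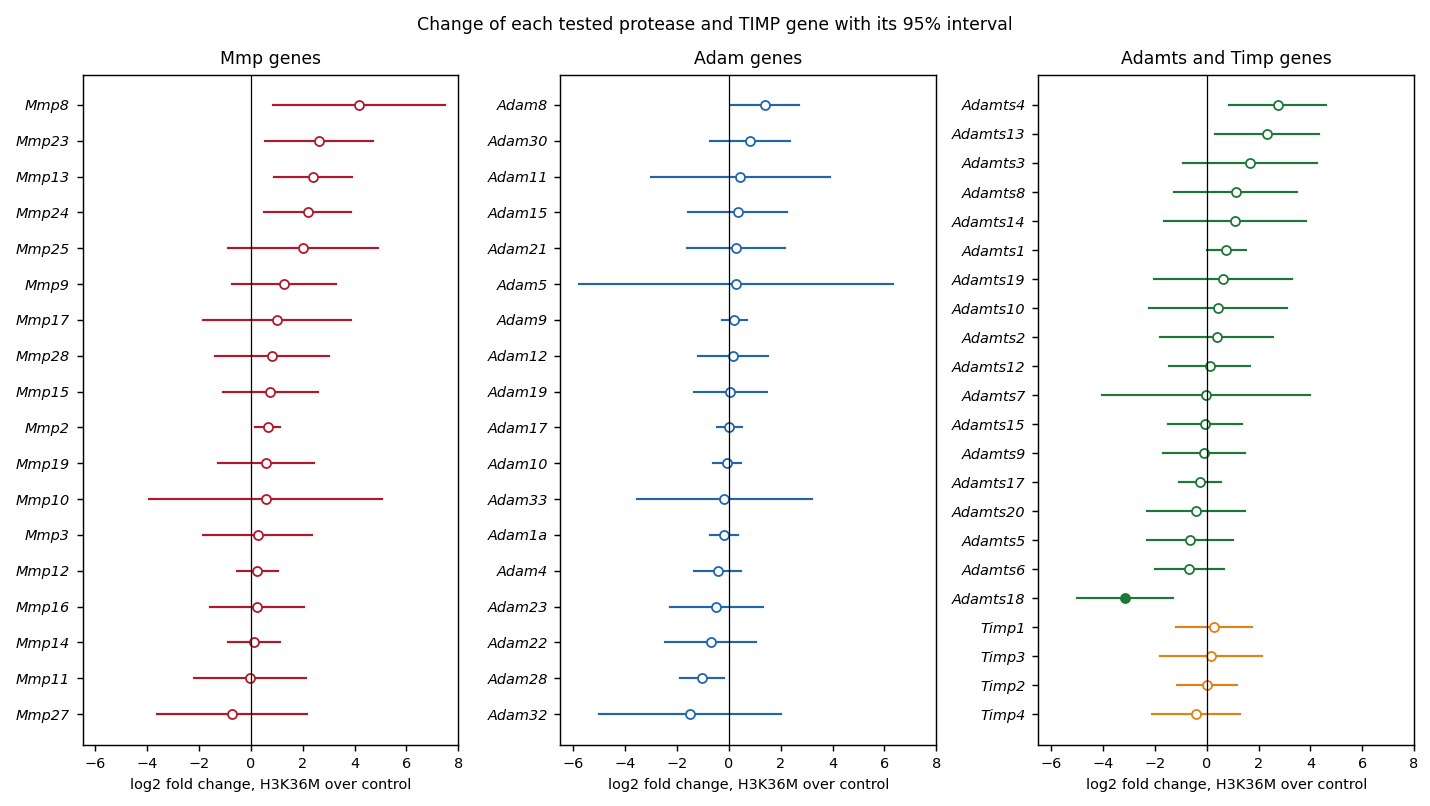
Log2 fold change of H3K36M over control for each of the 58 tested members (point) with its 95% interval (line), by family and ordered by size, filled where the adjusted p was below 0.05. Adamts18 is the only filled point; most Mmp points lie right of 0 with intervals that cross it, and the intervals of Adam9, Adam10 and Adam17 are among the shortest.

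Among the ADAM sheddases of somatic tissues, Adam10, Adam17 and Adam9 had high levels and small SEs. Adam10, which cuts NOTCH and E-cadherin, stood at 1506 normalised counts in H3K36M and 1593 in control in the authors' deposited table (log2 fold change −0.08, SE 0.27). Adam17, which releases TNF and EGFR ligands, stood at 1394 normalised counts in H3K36M and 1371 in control, with 0.02 (SE 0.26), in that deposited table. Adam9 stood at 862 normalised counts in H3K36M and 744 in control there, with 0.21 (SE 0.25). The 95% intervals were −0.62 to 0.46 for Adam10, −0.48 to 0.53 for Adam17 and −0.27 to 0.70 for Adam9. A doubling or halving lies outside each of these 3 intervals. Of all 58 tested members 4 had an interval within −1 to 1 on the log2 scale, these 3 and Adam1a, whose exons overlap other genes of the same strand over 63.7% of their length. Among all 17449 tested genes 6613 had such an interval. At a mean of at least 50 normalised counts, 4 of 17 members and 6293 of 11075 tested genes had one.

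Adam28 and Adam8, also sheddases, had an unadjusted p below 0.05, in opposite directions. Adam28, known from lymphocytes and epithelia, lies on chromosome 14 (68606027 to 68655842) and stood at 438 normalised counts in H3K36M and 896 in control in the authors' deposited table. Its log2 fold change of −1.03 (SE 0.44, adjusted p = 0.283, DESeq2 by the authors) had a 95% interval of −1.89 to −0.17 and did not pass. Adam8, an enzyme of myeloid cells also found in activated epithelium, stood at 139 normalised counts in H3K36M and 53.4 in control in that deposited table. Its log2 fold change was 1.38 (SE 0.67, adjusted p = 0.448, DESeq2 by the authors). Of 12 macrophage markers all 12 had a higher fitted level in H3K36M and 0 of 10 tested passed, with summed levels of 5800 normalised counts in H3K36M and 1298 in control. Cd68 had a log2 fold change of 0.18 (SE 0.25). Lyz2, which was set aside as an outlier, made up 4878 normalised counts of that sum in H3K36M and 486 in control.

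Adam15 stood at 797 normalised counts in H3K36M and 632 in control in the authors' deposited table. With a log2 fold change of 0.33 (SE 0.98) it was far less precise than Adam9 at a like level, the CV implied by the SE being 1.22 for Adam15 and 0.306 for Adam9. A gene on the other strand overlaps 20.6% of the Adam15 exon bases, and whether reads were counted by strand is a point that no source used here states. The stromal sheddases Adam12, Adam19 and Adam33 had log2 fold changes of 0.17 (SE 0.69), 0.06 (SE 0.72) and −0.17 (SE 1.72) in the authors' deposited table. Adam11, Adam22 and Adam23, nerve proteins without protease activity, had estimates from −0.71 to 0.44, and 0 of 3 passed.

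The remaining ADAMs are known mainly from testis and sperm. Of the 11 with reads 6 were tested and 0 passed. Adam4 stood at 12.8 normalised counts in H3K36M and 17.3 in control, and Adam1a at 46.9 in H3K36M and 54.0 in control, in the authors' deposited table. Adam30, Adam21, Adam32 and Adam5 had means of 2.66, 1.71, 0.442 and 0.452 normalised counts. Adam1b, Adam2, Adam3, Adam6b and Adam7 had between 0.985 and 3.32 normalised counts summed over all 13 libraries, a few reads at most. Markers of germ cells were as rare, with Prm1, Prm2, Tnp1 and Tnp2 listed at 0 and, of 6 tested, 0 past the threshold and 2 lower at an unadjusted p below 0.05 (Spaca1 and Zpbp, DESeq2 by the authors). Over the Adam family the median log2 fold change was 0.04, with 10 of 18 tested genes above 0.

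**Figure D3:**
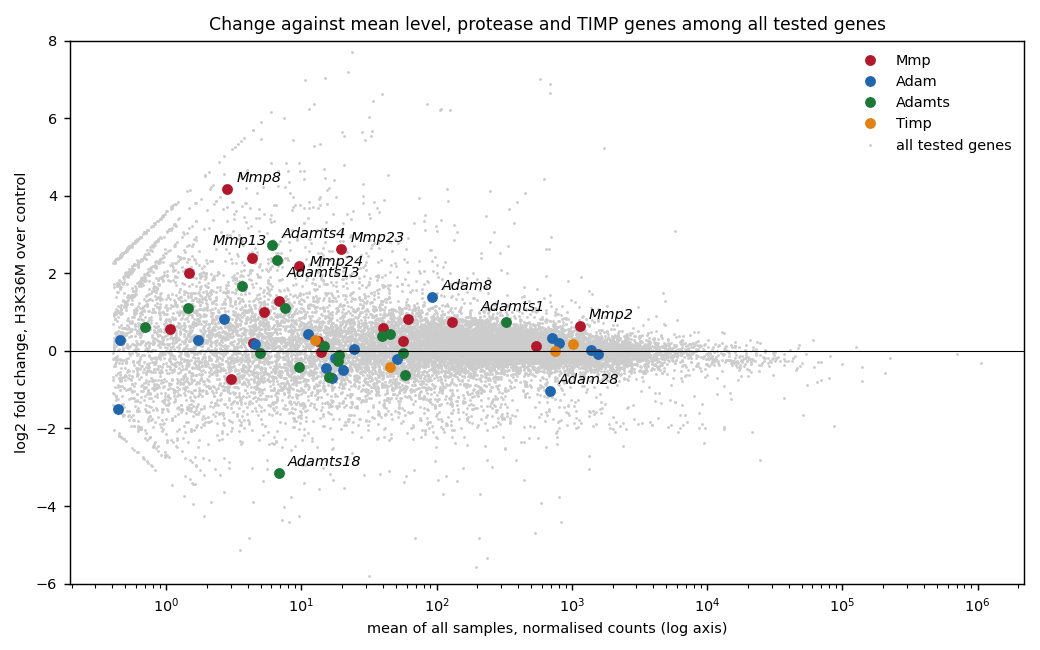
Mean level of all samples in normalised counts (log axis) against log2 fold change of H3K36M over control, with the members coloured by family over all tested genes in grey and the members with an unadjusted p below 0.05 named. The vertical axis is limited to −6 to 8 and leaves out some grey points; 41 of the 58 members have a mean under 50, where the grey cloud is wide, and Mmp2, Adamts1, Adam8 and Adam28 are the only named members at or above it.

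The ADAMTS proteases that cut proteoglycans were led by Adamts1, which cuts versican and aggrecan. Adamts1, on chromosome 16 (85793827 to 85803113), stood at 417 normalised counts in H3K36M and 247 in control in the authors' deposited table. Its log2 fold change of 0.75 (SE 0.38, adjusted p = 0.498, DESeq2 by the authors) had a 95% interval of 0.006 to 1.498. Adamts5, near it on the same chromosome and the main aggrecanase of mouse cartilage, stood at 44.7 normalised counts in H3K36M and 69.2 in control in that deposited table, with −0.63 (SE 0.85). Adamts4, the other classical aggrecanase, stood at 11.2 normalised counts in H3K36M and 1.69 in control there, with a log2 fold change of 2.73 (SE 0.95, adjusted p = 0.0941, DESeq2 by the authors). Its 95% interval was 0.88 to 4.59. Adamts15 stood at 55.2 normalised counts in H3K36M and 57.5 in control in the authors' deposited table, and Adamts8, Adamts9 and Adamts20 had log2 fold changes of 1.12 (SE 1.21), −0.10 (SE 0.81) and −0.42 (SE 0.96). The aggrecanases thus had estimates on both sides of 0, and 0 of the 7 genes of this group passed. By an unadjusted p below 0.05 (DESeq2 by the authors) 2 of the 7 were taken, against 9.82% of all tested genes.

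The procollagen N-proteinases Adamts2, Adamts3 and Adamts14, which trim the ends of fibrillar procollagens, had log2 fold changes of 0.38 (SE 1.11), 1.68 (SE 1.32) and 1.10 (SE 1.40) in the authors' deposited table. Adamts13, the protease of von Willebrand factor, stood at 11.7 normalised counts in H3K36M and 2.31 in control there, with 2.33 (SE 1.03, adjusted p = 0.326, DESeq2 by the authors). Vwf, its substrate, had a log2 fold change of 1.09 (SE 0.96) in that deposited table. The cartilage matrix proteases Adamts7 and Adamts12 stood close to 0, at −0.04 (SE 2.05) and 0.12 (SE 0.80). Of the remaining Adamts genes, Adamts10, a protein of fibrillin microfibrils, had 0.43 (SE 1.35), Adamts6 −0.68 (SE 0.68), Adamts17 −0.25 (SE 0.41) and Adamts19 0.62 (SE 1.36), all in the authors' deposited table. Within the family 10 of 18 tested genes were above 0, the median log2 fold change was 0.25, and Adamts18 alone passed.

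The TIMPs did not pass in either direction, and 0 of the 4 had an unadjusted p below 0.05 (DESeq2 by the authors). Timp2, which also takes part in the activation of pro-MMP2 by MMP14, stood at 743.5 normalised counts in H3K36M and 744 in control in the authors' deposited table, with a 95% interval of the log2 fold change from −1.16 to 1.16. Timp3, which is bound to the matrix, stood at 1092 normalised counts in H3K36M and 965 in control there (log2 fold change 0.18, SE 1.004). Timp1, the inducible inhibitor of wounds and inflammation, stood at 13.8 normalised counts in H3K36M and 11.4 in control in that deposited table, with 0.27 (SE 0.75). Timp4 stood at 38.2 normalised counts in H3K36M and 51.3 in control there, with −0.42 (SE 0.86). All 4 intervals reach past a change of 1 on the log2 scale, so a doubling or halving of a TIMP transcript lay within what these libraries allow. Timp3 overlaps Syn3 on the other strand, which covers 21.3% of its exon bases.

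Precision differed widely between members. Of the 58 tested members 17 had means of 50 normalised counts or more, and their median SE was 0.59. For the 41 members below it the median SE was 0.96. In comparison the median SE over all tested genes was 0.34 at a mean of 50 or more, 0.96 below it and 0.47 without this split. Members thus had a larger median SE than all genes at the higher means and a like one at the lower means. The median mean level was 15.6 normalised counts for tested members and 136 for all tested genes. The CV implied by the SE was 0.298 for Mmp2, 0.342 for Adam10 and 0.318 for Adam17, but 1.25 for Timp3 and 1.29 for Mmp23. It was 0.728 for Mmp13 and 1.04 for Adamts4, with counting error left out as in all these CVs.

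Other genes of the pathway were counted by role. Of 18 tested protease activators and inducers 1 was higher and 0 lower, against 1.85% higher and 1.59% lower among all tested genes. Klk7, a kallikrein that cuts the junctions of cornified cells, rose by 1.495 on the log2 scale (SE 0.42, adjusted p = 0.0132, DESeq2 by the authors), with 7202 normalised counts in H3K36M and 2555 in control in the authors' deposited table. The list's median log2 fold change was 0.27. At an unadjusted p below 0.05 (DESeq2 by the authors) 4 of its 18 genes were higher and 0 lower. That was 22.2% of the list, against 9.82% of all tested genes. Of 21 tested inhibitors, clearance receptors and ADAMTS-like genes 0 passed and 0 had an unadjusted p below 0.05, and Cst3 (−0.70, SE 0.37) and Serpinb2 (0.30, SE 0.52) had the highest means in the authors' deposited table. Of 13 tested ADAM partners and related metalloproteases 0 passed and 0 had an unadjusted p below 0.05 (DESeq2 by the authors). Rhbdf1, an iRhom that carries ADAM17 to the surface, had 0.57 (SE 0.87), and Tspan14, a tetraspanin partner of ADAM10, had 0.06 (SE 0.27) in that deposited table.

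Some proteins that ADAMs release were lower at the transcript level. Of 35 tested genes for shed substrates and ligands the authors' deposited table called 4 lower and 0 higher. Among all tested genes 1.59% were lower and 1.85% higher. The list had a median of 0.23 on the log2 scale, and 23 of the 35 had an estimate above 0. At an unadjusted p below 0.05 (DESeq2 by the authors) 2 were higher and 6 lower. That was 22.9% of the list, against 9.82% of all tested genes. Of the 4 called lower, Btc (−3.69, SE 0.42), Nrg1 (−1.96, SE 0.38) and Erbb4 (−3.16, SE 0.75) belong to the EGFR family of ligands and receptors. The other, Alcam, an adhesion molecule that ADAM17 can cut, stood at 464 normalised counts in H3K36M and 1108 in control in the authors' deposited table, with a log2 fold change of −1.26 (SE 0.33, adjusted p = 0.007, DESeq2 by the authors). The EGFR ligand gene Areg had −1.18 (SE 0.46) and Egf 0.79 (SE 0.33) there, and neither passed. Of 23 tested matrix substrates 0 passed and 0 had an unadjusted p below 0.05 (DESeq2 by the authors). Dcn (−0.20, SE 0.31) and Col17a1 (−0.12, SE 0.57) had the highest means of that list in the authors' deposited table. Bcan, Fmod and the cartilage genes Acan, Col2a1 and Comp of that list carried the authors' outlier mark and had no p.

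**Figure D4:**
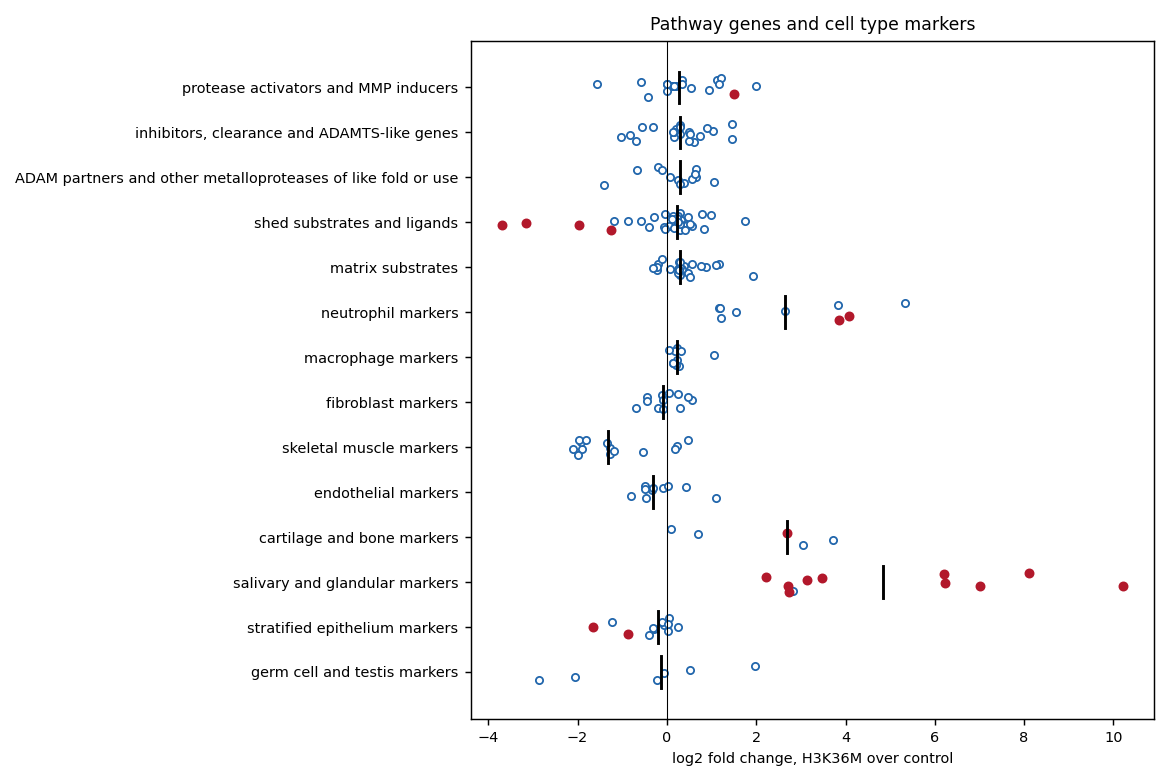
Log2 fold change of H3K36M over control for tested genes of 5 pathway lists and 9 lists of cell type markers, filled where the adjusted p was below 0.05, with a vertical bar at each list's median. Smgc, a salivary gene with a fitted level near 0 in control, lies off the axis; neutrophil, cartilage and glandular markers lie right of 0, skeletal muscle markers mostly left of it, and the 4 filled points of the shed substrates lie between −3.69 and −1.26.

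Markers of the tissue itself were as labelled, with the 12 stratified epithelium markers summing to 1874316 normalised counts in H3K36M and 2258318 in control. Of these 12, the authors' deposited table had 2 past the threshold, both lower. They were Krt36, a keratin of filiform papillae, with 23605 normalised counts in H3K36M and 74255 in control, and Krt14, the basal keratin whose promoter drives Cre here, with 37784 in H3K36M and 69205 in control. Of 12 tested salivary and glandular markers the authors' deposited table called 11 higher and 0 lower, with summed levels of 10443 normalised counts in H3K36M and 228 in control. Those 11 were the mucosal and salivary genes Tff2, Pigr, Muc19, Smgc, Bpifa1, Bpifb2 and Aqp5 and the simple-epithelium keratin genes Krt7, Krt8, Krt18 and Krt19. Tff2 alone stood at 6933 normalised counts in H3K36M and 5.80 in control in the authors' deposited table. The median over skeletal muscle markers was −1.32 on the log2 scale, with summed levels of 25522 normalised counts in H3K36M and 91987 in control, with 0 of 14 past the threshold and 0 at an unadjusted p below 0.05 (DESeq2 by the authors). The muscle genes of highest mean, Myh4 and Tnnt3, had log2 fold changes of −2.10 (SE 1.197) and −1.98 (SE 1.07) there. Endothelial markers had a median of −0.32 and 3 of 10 above 0, with 0 past the threshold and 0 at an unadjusted p below 0.05 (DESeq2 by the authors). The 2 of highest mean, Pecam1 and Vwf, had −0.50 (SE 0.90) and 1.09 (SE 0.96). The part of these tissues in the level of any protease or TIMP gene was not tested.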

How the data were processed

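Per the labels' protocols, polyadenylated RNA was made into directional libraries and sequenced as 75-base single-end reads. The submitters' processing notes name STAR, DESeq2 and the builds GRCm38 and mm10, with no versions. For the read counter and annotation, nothing is given in the sources used here. The authors' deposited table gives normalised counts (a signal scale) as a mean and 2 group levels, log2 fold changes with standard errors, a Wald score, p-values and adjusted p-values. In all 19909 genes with reads the 2 levels follow from the mean and the fold change within a relative tolerance of 1e-06, so they are fitted values.

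As only group values were used, no count model was run here, and calls are the authors' DESeq2 adjusted p below 0.05. Intervals of 95% were computed from the standard errors with scipy 1.17.1 and pandas 2.3.3 in Python 3.11.15. The CV implied by a standard error assumes 1 negative binomial dispersion and equal library sizes, and it leaves out counting error. GENCODE M21 (GRCm38) gave exon lengths and positions, and all 67 symbols were found once in it. Genes named are those past the threshold or at an unadjusted p below 0.05 and the 5 highest per kb of each family. All TIMPs and the tested chromosome 9 Mmp genes are named too. From each list they are the called genes or the 2 of highest mean. Others are given to account for all members or to show the makeup of a list. Members and lists were chosen with earlier results of these data known. The deposited tables of gene ontology terms were not used. The calculations were tested on simulated data.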

Additional observations from a re-analysis of the deposited data

How the results depend on the processing

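With an adjusted p below 0.1, 2 members were higher (Mmp13 and Adamts4) in place of 0. With the Wald statistic centred and scaled over all tested genes, 1 was higher (Mmp13, adjusted p = 0.0419). At an adjusted p below 0.01, or with adjustment over genes whose mean was 50 normalised counts or more, 0 were lower in place of 1, because Adamts18 had an adjusted p of 0.0269 and a mean of 6.78. It was lower with no filter on low means (adjusted p = 0.0304), with the statistic centred and scaled (0.00706), at an adjusted p below 0.1 and with an absolute log2 fold change above 1. The tested members had a median of 0.26 on the log2 scale, which was 0.24 over all members with reads, 0.18 at a mean of at least 50 and 0.19 relative to the median of all tested genes. Over all genes 347 were higher and 387 lower with the statistic centred and scaled. No paired analysis was possible because the labels give no shared replicate numbers and the values are group levels. For the same reason no replicate could be left out, and whether 1 library carries a result cannot be seen from the levels. The authors' tool set 175 genes aside as outliers. Of these 0 were members, but several markers in the lists above were among them. Means below 10 normalised counts, held by 23 of the 58 tested members, limit what can be detected.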
